A study of Homo sapiens with 16 samples.

Results

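RT112 is a human bladder cancer line that belongs to the luminal class, which keeps features of the surface cells of the urothelium. The values described here come from the 8 RT112 libraries of a series of 16, the other 8 being from SCaBER, a bladder cancer line of the basal type. RT112 cells were grown in RPMI medium with 10% serum and transfected with 10 nM of 1 small interfering RNA (siRNA) each, the unit being nM in the labels and ng in the methods of the study. Of the 8 libraries, 4 carry an siRNA against FOXA1 (siFOXA1.1 or siFOXA1.2) and 4 carry a control siRNA (siControl.1 or siControl.2). Each siRNA has 2 libraries, which the labels number as experiment batch replicates 1 and 2. No source used here says that they came from separate cultures, so the p-values measure the spread between these libraries of 1 cell line, which may be technical. RNA was read at the 3' ends of transcripts, and levels are given as CPM, the counts of a gene scaled to a common library total. The question is which genes, across the whole table, moved in the same direction under both FOXA1 siRNAs, beyond the few that stood out when the 4 libraries were pooled.

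FOXA1 is a pioneer transcription factor of the forkhead family: it binds its sites in compact chromatin and opens them for other factors. In bladder it works with GATA3 and PPARG in luminal urothelial cells, whose known products include uroplakins, luminal keratins and secreted mucosal proteins. An siRNA lowers the mRNA it matches, and it can also lower other mRNAs that share a short stretch with it, which is why a knock-down is usually done with more than 1 siRNA.

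FOXA1 itself (chr14:37589552-37595249, GRCh38.p14) was measured at 35.0 and 29.5 CPM in the siControl.1 libraries and at 18.2 and 28.4 CPM in those of siControl.2. It was at 1.32 and 3.24 CPM under siFOXA1.1 and at 9.18 and 16.0 CPM under siFOXA1.2. No siFOXA1 library reached the level of a control library, and the remaining level was 8.22% of the control mean under siFOXA1.1 and 45.3% under siFOXA1.2. An exact permutation test over the 8 libraries gave p = 0.0286 (two-sided), the smallest value that 4 against 4 allows. It treats the 8 libraries as exchangeable, although each siRNA supplied 2 of them. This p therefore does not measure the spread between siRNAs. The edgeR fit across all genes gave a pooled log2 change of -1.86 with an adjusted p of 0.278, a change of -3.44 under siFOXA1.1 (adjusted p = 2.19e-05) and of -1.10 under siFOXA1.2 (adjusted p = 0.205).

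Library totals lay between 6622473 and 7604581 counts, so that 3 counts, used as the floor of detection, correspond to 0.394 to 0.453 CPM, a limit that covers counting error only. Each library was nearest to the other library of its own siRNA. Mitochondrially encoded genes took 25.7% and 28.2% of counts under siFOXA1.1 against 18.0% to 21.2% in the other 6 libraries. In the control libraries the luminal markers summed to 10830 to 13950 CPM and the basal and squamous markers to 2278 to 2898 CPM. The luminal sum was thus the larger, with basal markers also present. Such sums follow their most abundant members, so they do not test the luminal label. Of the other cell types, 7 of 10 leukocyte markers, PTPRC among them, had no count in any RT112 library, and the list summed to at most 0.263 CPM in controls and 3.22 CPM under siFOXA1. The fibroblast markers summed to 85.2 to 137 CPM in controls and 103 to 146 CPM under siFOXA1, with COL3A1 and DCN at 0, and the endothelial markers to 2.92 to 9.66 and 1.92 to 11.2 CPM, with VWF at 0. The part of these markers in the results was not tested.

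The pooled comparison of 4 siFOXA1 with 4 siControl libraries passed an adjusted p of 0.05 for 13 of 11986 genes tested (0.108%), with 5 higher (0.0417%) and 8 lower (0.0667%), and for none once the batch replicate was fitted as a block. Taken 1 siRNA at a time against both controls, siFOXA1.1 changed 3903 genes (32.6%) and siFOXA1.2 changed 245 (2.04%), of which 125 were higher (1.04%) and 120 lower (1.0%). For scale, the 2 control siRNAs differed from each other in 283 genes (2.36%). Against a single control siRNA, siFOXA1.2 changed 141 genes with siControl.2 and 318 with siControl.1. In all, 109 genes (0.909%) passed in both with the same sign, 55 higher (0.459%) and 54 lower (0.451%), and 49 (0.409%) passed in both with opposite signs. The 109 are 44.5% of the genes called under siFOXA1.2 and 2.79% of those called under siFOXA1.1. The split of 55 to 54 depended on the scaling: 36.5% of the same-direction genes were higher with library totals alone and 20.5% in the TPM table.

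Both comparisons use the same 4 control libraries, so their changes are not independent. When each FOXA1 siRNA was set against a different control siRNA, no library was used on both sides. With siFOXA1.1 against siControl.1 and siFOXA1.2 against siControl.2, 47 genes passed in both with the same sign (0.392%) and 36 with opposite signs (0.3%). With the controls exchanged there were 89 (0.743%) and 85 (0.709%). Over all 11986 genes the 2 changes had the same sign in 50.8% of genes in the first pairing and 49.0% in the second. Among genes with both changes of at least 1 on the log2 scale, the same sign was seen in 344 of 604 and 327 of 702. Without a shared library, then, same-direction calls outnumbered opposite calls by 11 genes in the first pairing and by 4 in the second.

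**Figure D1:**
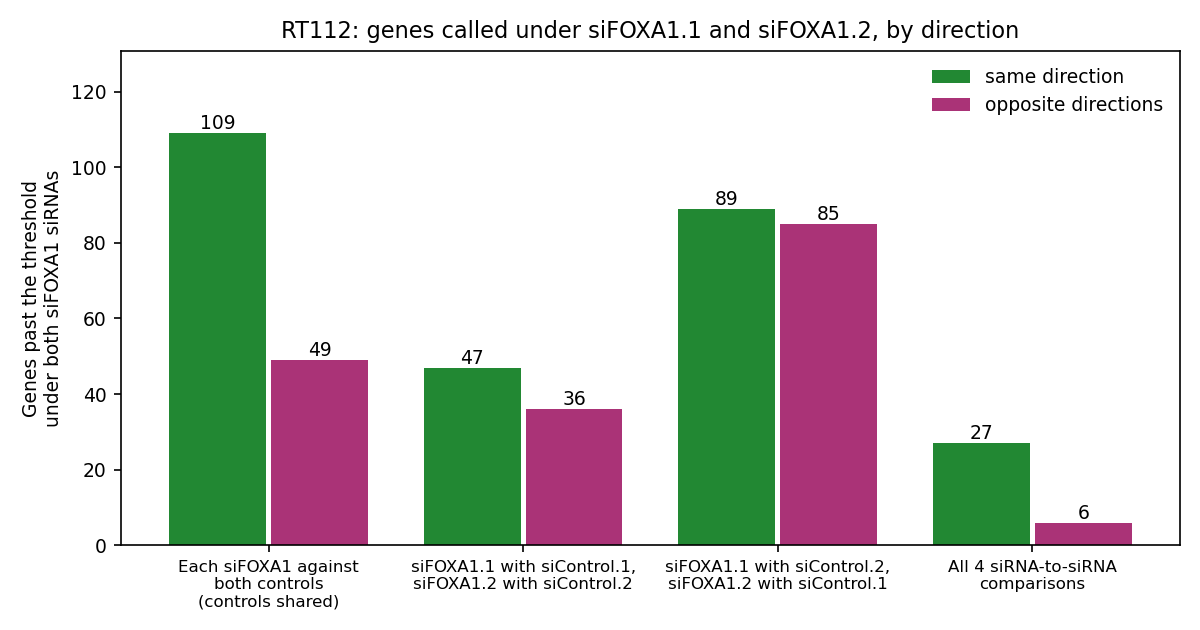
Number of RT112 genes past an adjusted p of 0.05 under both FOXA1 siRNAs, in the same direction (green) or in opposite directions (purple), for 4 ways of using the control libraries. The counts are 109 and 49 with shared controls, 47 and 36 and then 89 and 85 without a shared library, and 27 and 6 when a gene had to pass against each control separately.

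A stricter rule, added after the data had been seen, asked that each FOXA1 siRNA differ in 1 direction from each control siRNA, which makes 4 siRNA-to-siRNA comparisons. It left 27 genes (0.225%), 7 higher (0.0584%) and 20 lower (0.167%), against 6 genes (0.0501%) that moved in opposite directions in all 4. Both FOXA1 siRNAs were again set against the same control libraries, so these counts do not come from independent comparisons. All 27 were among the 109, and they held all 13 genes of the pooled comparison. In each of the 27, the 4 siFOXA1 libraries did not overlap the 4 siControl libraries (7.95% of all genes tested do not overlap), a separation that follows in part from how they were chosen. Leaving out 1 library at a time kept 19 to 27 of the 27 within the same-direction group, which itself ranged from 37 genes (without either siFOXA1.2 library) to 148 (without siFOXA1.1 replicate 1).

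**Figure D2:**
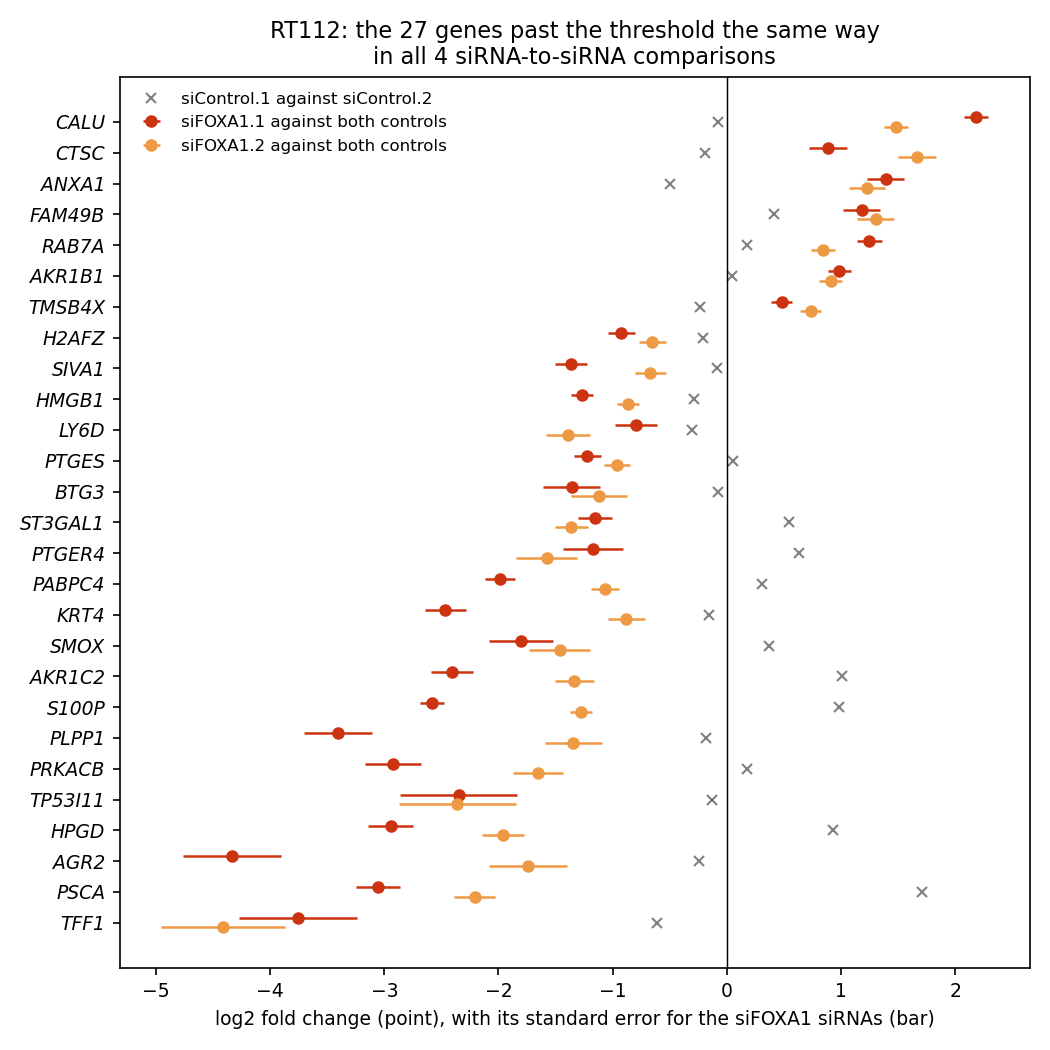
The 27 genes past the threshold in all 4 siRNA-to-siRNA comparisons, ordered by pooled change. Points give the log2 fold change (horizontal axis) of siFOXA1.1 (red) and siFOXA1.2 (orange) against both controls with the standard error as a bar, and grey crosses give the difference between the control siRNAs. Of these genes 20 lie left of 0 under both siRNAs and 7 lie right of it, from TFF1 at -3.75 and -4.41 to CALU at 2.19 and 1.48.

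The genes that fell included markers of luminal urothelium and secreted mucosal proteins. Of 24 luminal markers tested, 7 fell under both siRNAs and none rose under both. Of 11 mucosal secretory genes 4 fell under both (0.451% of all genes did). Under siFOXA1.1, 16 luminal markers fell but 5 rose, and 8 mucosal genes fell but 1 rose (17.0% and 15.6% of all genes). No member of either list rose past the threshold under siFOXA1.2. The 7 became 4 to 10 with 1 library left out, with 4 without siFOXA1.2 replicate 1 and 10 without siFOXA1.1 replicate 1, and 4 in the TPM table. The lists were drawn up with earlier results of these libraries known, so the counts are descriptions. TFF1, a trefoil peptide secreted onto mucosal surfaces, was at 45.1, 47.1, 65.7 and 81.7 CPM in the controls, at 7.32 and 0.589 CPM under siFOXA1.1 and at 3.21 and 2.19 CPM under siFOXA1.2. Every siFOXA1 library was thus far under the lowest control, and the pooled log2 change was -4.08 ± 0.54 (SE, adjusted p = 0.0366). The log2 change was -3.75 under siFOXA1.1 and -4.41 under siFOXA1.2, and their difference did not pass (0.66, adjusted p = 0.47).

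AGR2, a disulfide isomerase of the endoplasmic reticulum needed for mucin production, stood at 97.8 to 143 CPM in the controls. It was at 8.64 and 1.62 CPM under siFOXA1.1 and at 21.6 and 45.3 CPM under siFOXA1.2, so the siFOXA1.2 libraries lay between the siFOXA1.1 libraries and the controls. Its log2 change was -4.34 under siFOXA1.1 and -1.74 under siFOXA1.2, and these differed from each other (adjusted p = 0.000273). PSCA, a surface antigen of luminal epithelia attached by a lipid anchor, was at 263 and 303 CPM with siControl.1 but at 103 and 77.4 CPM with siControl.2. Against this difference between controls (adjusted p = 2.92e-05), its 16.1 to 35.1 CPM in the siFOXA1 libraries still lay below every control, with a pooled log2 change of -2.81 ± 0.45 (SE, adjusted p = 0.04).

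S100P, a calcium-binding protein of differentiated urothelium, was at 2397 and 2683 CPM with siControl.1 and at 1304 and 1382 CPM with siControl.2. It was at 309 and 254 CPM under siFOXA1.1 and at 738 and 766 CPM under siFOXA1.2. The order of the 4 siRNAs was the same as for PSCA, and both pairs, controls (adjusted p = 2.53e-05) and FOXA1 siRNAs (adjusted p = 9.83e-08), differed within themselves. KRT4, a keratin of wet stratified epithelia, ranged from 792 to 1156 CPM in controls and from 120 to 556 CPM under siFOXA1. LY6D, a lipid-anchored surface protein of epithelia, ranged from 178 to 330 CPM in controls and from 75.8 to 139 CPM under siFOXA1. KRT4 and LY6D are in neither the luminal nor the mucosal list, and both were named after their values were seen.

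**Figure D3:**
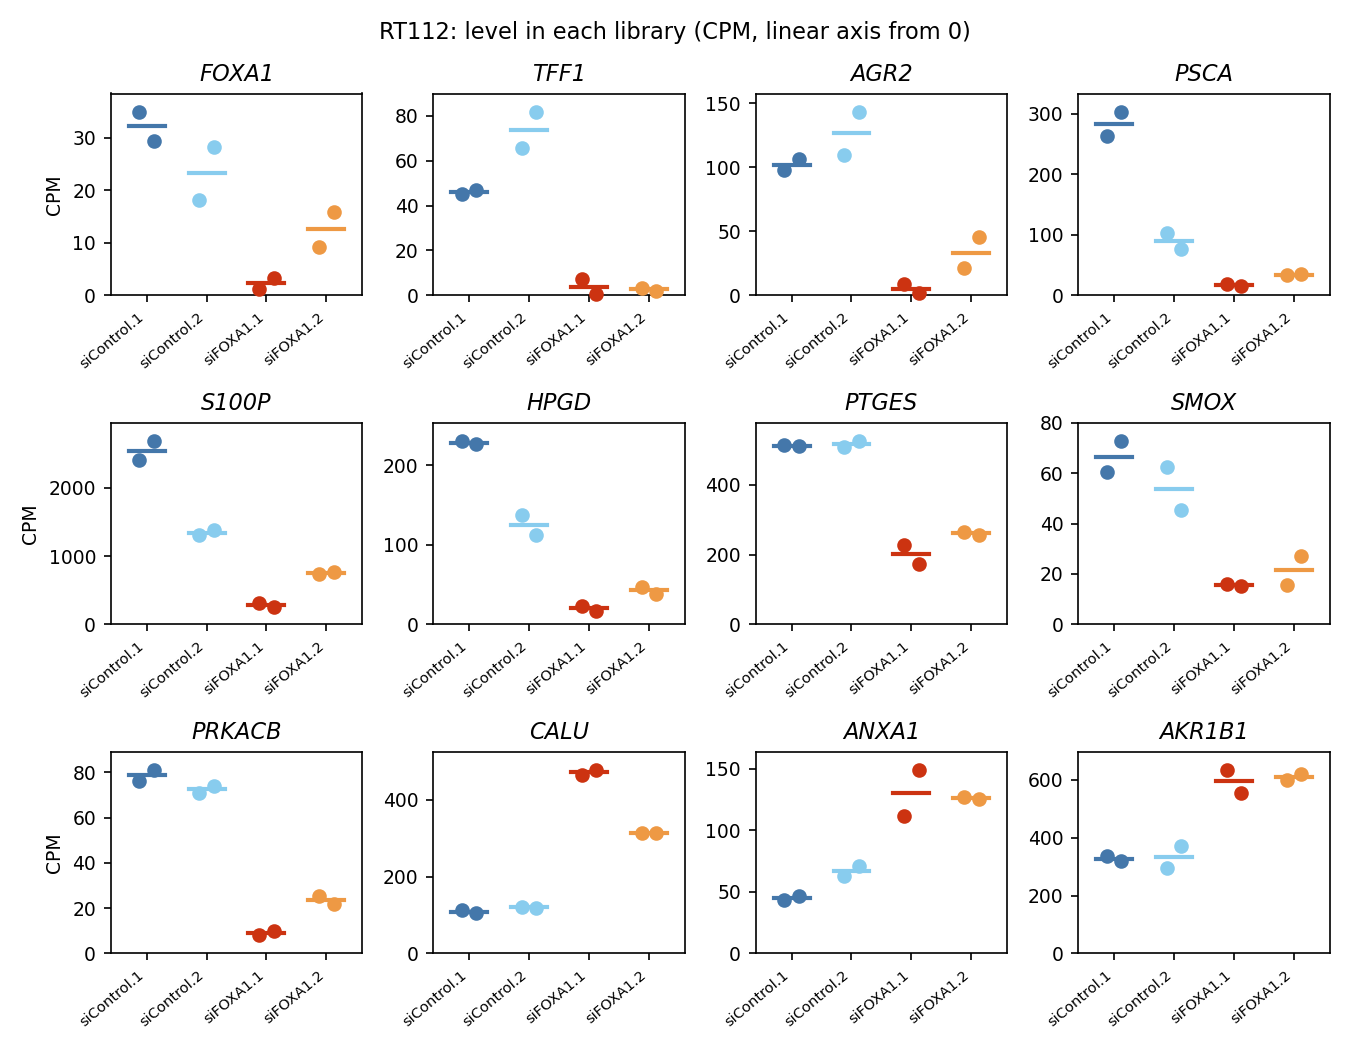
CPM of FOXA1 and 11 genes in each of the 8 RT112 libraries (vertical axes linear from 0). Dots are libraries, coloured by siRNA, and lines are the mean of the 2 libraries of an siRNA. FOXA1, TFF1, AGR2, PSCA, S100P, HPGD, PTGES, SMOX and PRKACB are below every control library in all 4 siFOXA1 libraries, and CALU, ANXA1 and AKR1B1 are above.

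Further luminal and mucosal genes of the 109 lay outside the 27. UPK2, 1 of the uroplakins that plate the apical surface of the bladder, was at 491 and 424 CPM with siControl.1, 239 and 190 CPM with siControl.2, and 91.5 to 181 CPM under siFOXA1. The highest siFOXA1 library thus lay just under the lowest control library, and the controls differed (adjusted p = 0.00579). UPK1B fell by 0.30 on the log2 scale under siFOXA1.1 and by 0.80 under siFOXA1.2, a larger fall with the second (adjusted p of the difference 0.00302). KRT7, a keratin of simple and luminal epithelium, fell by 0.78 and 0.42. Its controls differed too (adjusted p = 0.00644), and siFOXA1.2 against siControl.2 alone gave -0.16, which did not pass (adjusted p = 0.642). CEACAM6, a cell adhesion molecule of mucosal epithelia whose counts may hold reads of its close relatives, was at 47.9 to 114 CPM in controls, 41.7 and 27.1 CPM under siFOXA1.1 and 9.62 and 12.2 CPM under siFOXA1.2, the larger fall again being with siFOXA1.2 (adjusted p = 0.000136). PHGR1, a small protein of gut epithelium, had no count in either siFOXA1.1 library, and 0.437 and 0.546 CPM under siFOXA1.2. Its control siRNAs differed (adjusted p = 0.0486), with 18.5 and 29.3 CPM for siControl.1 and 3.86 and 4.73 CPM for siControl.2, so that the level under siFOXA1.1 was at least 54.1-fold lower than the first and at least 9.71-fold lower than the second.

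Genes of prostaglandin metabolism made up a further group, with 7 of 12 tested in the same-direction group, 5 lower (0.451% of all genes) and 2 higher (0.459%). The split was 3 lower and 1 higher without either siFOXA1.2 library, and 1 of the higher was lost with library totals alone. HPGD, the dehydrogenase that inactivates prostaglandin E2, was at 230 and 226 CPM with siControl.1, 138 and 112 CPM with siControl.2, 23.6 and 16.5 CPM under siFOXA1.1 and 47.4 and 38.2 CPM under siFOXA1.2. All 4 siFOXA1 libraries lay below the controls, with a pooled log2 change of -2.44 ± 0.34 (SE, adjusted p = 0.0366). PTGES, the synthase that makes prostaglandin E2, had even controls, at 508 to 526 CPM, and 229, 174, 265 and 257 CPM in the siFOXA1 libraries. Its pooled log2 change was -1.09 ± 0.15 (SE, adjusted p = 0.0366), and the difference between the FOXA1 siRNAs did not pass (-0.26, adjusted p = 0.149). PTGER4, a receptor for prostaglandin E2, averaged 45.9 ± 10.9 CPM in controls and 16.5 ± 3.45 CPM under siFOXA1 (SD, n = 4 each).

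AKR1C2 and AKR1C1, aldo-keto reductases that act on steroids and prostaglandins, are near-identical in sequence, so that reads may be shared between them. AKR1C2 was at 136 to 271 CPM in controls and 24.8 to 78.1 CPM under siFOXA1, and AKR1C1 at 119 to 189 and 25.5 to 79.3 CPM. Both fell more under siFOXA1.1, by 2.41 and 1.90 on the log2 scale, than under siFOXA1.2, by 1.34 and 0.99. AKR1B1, an aldose reductase that also makes prostaglandin F2 alpha, went the other way. It was at 294 to 371 CPM in controls and 556 to 635 CPM under siFOXA1, a log2 rise of 0.99 ± 0.10 under siFOXA1.1 and 0.91 ± 0.10 under siFOXA1.2 (SE), which left the FOXA1 siRNAs indistinguishable at this depth (adjusted p = 0.69). CBR1, a carbonyl reductase that converts prostaglandin E2, rose by 0.49 and 0.75 with overlap between the groups. PTGS2, which starts the pathway, was at 23.9 CPM in controls and 24.3 CPM under siFOXA1 on average and passed with neither siRNA.

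Among the remaining fallers were signalling and nuclear proteins. PRKACB, a catalytic subunit of protein kinase A, was at 71.1 to 81.1 CPM in controls, 8.20 and 9.87 CPM under siFOXA1.1 and 25.5 and 21.9 CPM under siFOXA1.2. Its controls were close together (adjusted p = 0.846), and it was the only 1 of 13 protein kinase A genes to fall under both siRNAs, where 2 fell without either siFOXA1.1 library. Of these 13 genes 6 fell and 2 rose under siFOXA1.1 (17.0% and 15.6% of all genes did), and 0.451% of all genes fell under both. SMOX, spermine oxidase, was at 45.5 to 72.8 CPM in controls and 15.2 to 27.2 CPM under siFOXA1, with a pooled log2 change of -1.64 ± 0.26 (SE, adjusted p = 0.04). It was the only 1 of 12 polyamine genes to fall under both siRNAs, and without siFOXA1.2 replicate 1 none did, as its change under siFOXA1.2 of -1.12 then missed the threshold (adjusted p = 0.167). Of the 12 polyamine genes 4 fell and 1 rose under siFOXA1.1. ST3GAL1, a sialyltransferase that caps O-linked sugar chains, was at 188 to 312 CPM in controls and 92.4 to 114 CPM under siFOXA1 (pooled log2 change -1.28 ± 0.20, SE). It belongs with PTGES and SMOX to the fallers in which the FOXA1 siRNAs did not differ past the threshold (adjusted p = 0.378).

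HMGB1, an abundant chromatin protein with many processed pseudogenes that may take or give reads, was at 729 to 958 CPM in controls and 300 to 464 CPM under siFOXA1. PABPC4, a cytoplasmic poly(A)-binding protein with close relatives, was at 518 to 669 CPM in controls, 122 and 147 CPM under siFOXA1.1 and 254 and 299 CPM under siFOXA1.2. In both genes the siFOXA1.1 libraries were the lowest and no siFOXA1 library reached a control. PLPP1, a lipid phosphatase of the plasma membrane, fell by 3.40 and 1.34 on the log2 scale, and BTG3, an antiproliferative protein, by 1.36 and 1.12. TP53I11 was at 18.4 to 29.7 CPM in controls and 2.04 to 6.56 CPM under siFOXA1, with log2 changes of -2.35 and -2.36. SIVA1, which promotes cell death, fell by 1.37 and 0.67, and H2AFZ, a histone variant with related copies, by 0.92 and 0.65. Outside the 27, falls of at least 1 on the log2 scale under both siRNAs were measured for DENND2D (a regulator of Rab proteins), PALM (a membrane-shaping protein), TLE2 (a co-repressor), GPD1L (a glycerol phosphate dehydrogenase family member), HS6ST3 (a heparan sulfate sulfotransferase) and FSTL3 (an inhibitor of activins).

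Among the 7 risers of the stricter rule was CALU, a calcium-binding protein of the secretory pathway. It was at 113, 104, 120 and 119 CPM in the controls, 466 and 478 CPM under siFOXA1.1 and 313 and 315 CPM under siFOXA1.2. The spread within each siRNA was small beside these steps, and the pooled log2 change of 1.88 ± 0.20 (SE) had the lowest adjusted p of the comparison, 0.0115. Of 15 calcium-binding proteins of the secretory pathway, CALR and PDIA4, both chaperones of the endoplasmic reticulum, also rose under both siRNAs and none fell under both (0.459% and 0.451% of all genes did). CALR rose by 0.74 and 0.36, and PDIA4 by 0.63 and 0.85 with overlap, since its 2 control siRNAs lay at 34.1 and 38.1 CPM and at 82.2 and 85.1 CPM. With library totals alone the list had 2 risers under both, and it had 1 on the TPM values or without siFOXA1.2 replicate 2.

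ANXA1, an annexin that binds phospholipids and damps inflammation, was at 43.4 to 70.7 CPM in controls and 112 to 149 CPM under siFOXA1. RAB7A, the GTPase of late endosomes, was at 212 to 240 CPM in controls and 360 to 508 CPM under siFOXA1. It was the only 1 of 32 vesicle traffic GTPases to rise with both (0.459% of all genes did). Under siFOXA1.1, 15 of the 32 rose and 4 fell (15.6% and 17.0% of all genes did). FAM49B, a regulator of actin branching, was at 47.6 to 77.6 and 118 to 159 CPM. CTSC, a lysosomal protease, rose more under siFOXA1.2 (1.66) than under siFOXA1.1 (0.89), with an adjusted p of 0.00644 for the difference. TMSB4X, an actin-binding peptide, rose by 0.48 and 0.73, from 595 to 782 CPM in controls to 821 to 1155 CPM under siFOXA1.

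Beyond these 7, SOX9, a transcription factor of progenitor cells in many epithelia, was at 17.4 to 51.9 CPM in controls and 58.7 to 86.8 CPM under siFOXA1, although its controls differed (adjusted p = 0.0353). CD44, a hyaluronan receptor, was the only 1 of 21 basal and squamous markers to rise with both (0.459% of all genes did). CD44 was at 62.1 to 138 CPM in controls, 134 and 164 CPM under siFOXA1.1 and 264 and 230 CPM under siFOXA1.2, so the groups overlapped by 1 library. Of the 21 markers, 6 rose and 5 fell under siFOXA1.1 (15.6% and 17.0% of all genes did). Under siFOXA1.2, 6 rose and 2 fell (1.04% and 1.0%), and 3 had opposite calls under the FOXA1 siRNAs (0.409%). In the TPM table no basal marker rose under both, and with the size factors of DESeq2 in edgeR 2 did. Other risers were much steeper under siFOXA1.1. MAP2, a microtubule-associated protein, was at 0 to 2.26 CPM in controls, 83.2 and 112 CPM under siFOXA1.1 and 3.79 and 5.46 CPM under siFOXA1.2. CPA4, a secreted carboxypeptidase, was at 16.2 to 51.1 CPM in controls, 359 and 399 CPM under siFOXA1.1 and 77.1 and 56.1 CPM under siFOXA1.2. FBXO32, a ubiquitin ligase subunit of atrophy, was at 10.4 to 15.9, 118 and 127, and 20.7 and 28.0 CPM.

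A shared direction did not mean a shared size. Of the 109 genes, 45 differed between siFOXA1.1 and siFOXA1.2, and in 37 of these the change was larger under siFOXA1.1. The background is high, since 28.1% of all genes tested differed between the FOXA1 siRNAs. The median log2 change of the 55 risers was 1.09 under siFOXA1.1 and 0.78 under siFOXA1.2, and that of the 54 fallers -1.15 and -1.06, beside -0.01 and 0.01 over all genes. In 34 of the 109 the 2 control siRNAs also differed (2.36% of all genes did), among them PSCA, S100P, HPGD, AKR1C2, UPK2, KRT7, SOX9, MAP2 and CPA4. The groups did not overlap in 88 of the 109 (7.95% of all genes do not) and overlapped in 21. Within batch replicate 1 the 2 siFOXA1 libraries lay beyond the 2 controls for 44 of 55 risers (14.3% of all genes) and 52 of 54 fallers (19.7%), and within batch replicate 2 for 42 (12.8%) and 54 (19.8%). These counts describe the libraries in which the 109 were chosen, and the choice favours such separation, so nothing is read from them against the shares of all genes.

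Many cell cycle and interferon genes moved under siFOXA1.1, and none was in the same-direction group, which holds 0.909% of all genes. In that group 1 interferon gene appeared without the filter, with the replicate block, or without either siFOXA1.1 library or siFOXA1.2 replicate 2, and 1 gene of G2 and mitosis without siFOXA1.1 replicate 2. Of 42 genes of G2 and mitosis, 39 fell under siFOXA1.1 (17.0% of all genes did) and none passed under siFOXA1.2, and 38 (15.1% of all genes) were lower when siFOXA1.1 was set directly against siFOXA1.2. Of 35 S phase genes, 29 fell under siFOXA1.1, none passed under siFOXA1.2 and 27 were lower when the FOXA1 siRNAs were compared directly. Of 44 interferon response genes tested, 29 rose (15.6% of all genes did) and 1 fell under siFOXA1.1, none passed under siFOXA1.2 and 26 (13.0% of all genes) were higher in that direct comparison. Only 2.04% of all genes passed under siFOXA1.2, so a count of none in lists of this size is near that background. The median log2 change of these 3 lists under siFOXA1.2 was -0.07, -0.07 and 0.08. The share of mitochondrially encoded counts, given above, was also highest in the siFOXA1.1 libraries, and its part in these counts was not tested.

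**Figure D4:**
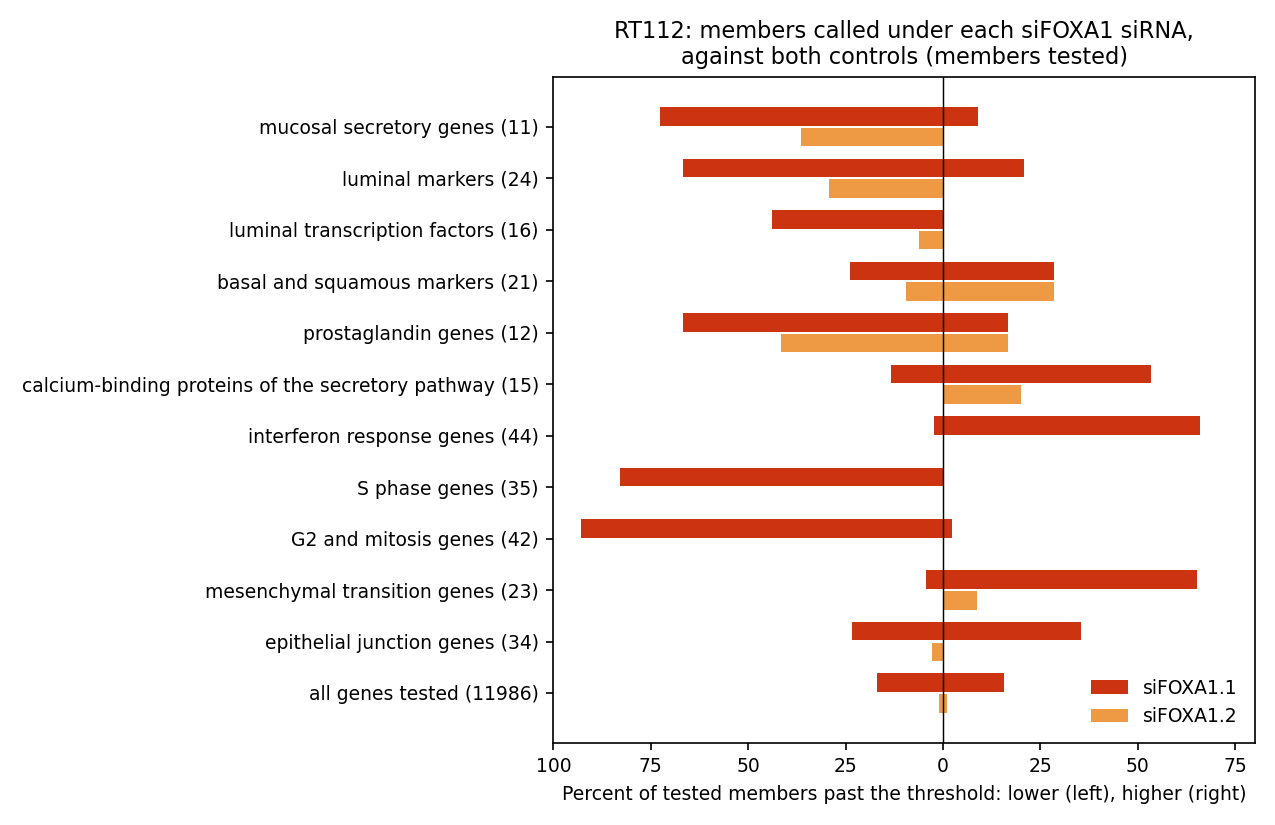
Share of the tested members of 11 gene lists, and of all 11986 genes, past the threshold under siFOXA1.1 (red) and siFOXA1.2 (orange) against both controls, with lower calls drawn to the left and higher calls to the right (percent of members). Mucosal secretory genes, luminal markers and prostaglandin genes have calls under both siRNAs, but they are not the only lists that do. Basal and squamous markers have both higher and lower calls under each siRNA, and calcium-binding proteins of the secretory pathway also have calls under both. The S phase, G2 and mitosis and interferon lists have bars for siFOXA1.1 alone, where 2.04% of all genes passed under siFOXA1.2.

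Of 16 transcription factors of the luminal network, 7 fell under siFOXA1.1 (17.0% of all genes did) and 1 under siFOXA1.2 (1.0%), and none under both. The count under siFOXA1.2 was 2 with the replicate block, 3 without the filter or without either siFOXA1.1 library, 4 with DESeq2 and 0 in the TPM table. KLF5, a factor of proliferating epithelium, fell by 1.65 under siFOXA1.1 and had a change of -0.52 under siFOXA1.2 (adjusted p = 0.0779). GATA3 fell by 0.82 under siFOXA1.1, with -0.25 under siFOXA1.2 (adjusted p = 0.358), and PPARG by 0.69, with -0.10 (adjusted p = 0.91). The 1 factor that fell under siFOXA1.2 was ELF3, an ETS factor of epithelial differentiation, by 1.03, against -0.12 under siFOXA1.1, and the direct difference passed (adjusted p = 0.000353). Of the 16, 1 fell under both siRNAs with DESeq2, with the replicate block, without the filter and without either siFOXA1.1 library.

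The 6 genes that went in opposite directions in all 4 comparisons included LDHA, lactate dehydrogenase A, at 449 to 521 CPM in controls, 207 and 143 CPM under siFOXA1.1 and 990 and 922 CPM under siFOXA1.2. SPRR3, a cornified envelope protein, was at 77.0 to 109 CPM in controls, 176 and 160 CPM under siFOXA1.1 and 29.7 and 42.9 CPM under siFOXA1.2. KRT81, a hair keratin whose reads may be shared with its relatives, was at 2.53 to 10.3 CPM in controls, 152 and 166 CPM under siFOXA1.1 and at or under the floor of 3 counts under siFOXA1.2. In each of these the controls stood between the FOXA1 siRNAs. GJA5, a connexin, was at 0.921 to 2.13 CPM in controls and 45.4 and 32.4 CPM under siFOXA1.1, and had no count under siFOXA1.2, at least 3.89-fold below the control mean. EFNB2, an ephrin ligand, moved like LDHA, and CRYBG2 like SPRR3. S100A8, a calprotectin subunit and not 1 of the 6, also had opposite calls, with a fall of 1.43 under siFOXA1.1 and a rise of 1.48 under siFOXA1.2 on the log2 scale from the mean of both controls. Its controls themselves lay far apart, at 311 and 270 CPM with siControl.1 and 35.7 and 36.6 CPM with siControl.2 (adjusted p = 5.53e-09). The siFOXA1.1 libraries, at 37.2 and 32.3 CPM, were near siControl.2 (adjusted p = 0.677), and those of siFOXA1.2, at 259 and 306 CPM, near siControl.1 (adjusted p = 0.943).

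SCaBER received the same 4 siRNAs, and its libraries were not used to choose the genes. FOXA1 is scarce there, at 1.39 CPM in controls and 0.346 CPM under siFOXA1 on average. Of the 109 genes, 93 were tested in SCaBER, and 79 of them (84.9%) had the sign of RT112 in the pooled comparison, beside 64.5% of the 10592 other genes tested in both lines. With siFOXA1.2 alone the shares were 84.9% and 54.4%, and with siFOXA1.1 alone 78.5% and 69.0%. The risers kept their sign in 50 of 55 cases, with a median SCaBER log2 change of 0.52, and the fallers in 29 of 38, with a median of -0.42. The 109 are more highly expressed than most genes (median 106 CPM in RT112 against 23.1 CPM over all genes tested), and the part of this in the shares was not tested. They were also chosen for passing under both siRNAs in RT112, whereas most of the other genes passed under neither. The RT112 sign of the 109 is therefore better measured, which favours a higher share, so nothing is read from the difference.

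Gene by gene, the calls in SCaBER were mostly under siFOXA1.1, where 32 of the 93 passed (9.26% of all genes did), 31 of them with the sign of RT112. This sign was also common elsewhere: of the other genes tested in both lines 997 passed there, 910 with the sign of RT112. Among the 31 were CPA4 at 2.19, MAP2 at 2.10, RAB7A at 1.08, HMGB1 at -1.19 and PTGES at -2.16 on the log2 scale. The exception of the 32 was FSTL3, which rose by 2.81. Under siFOXA1.2, 2 of the 93 passed (0.042% of all genes), CALU and PABPC4, which thus moved as in RT112 under both siRNAs. In the pooled test, of the 93 only PABPC4 passed (log2 change -1.37, adjusted p = 0.0292), where 0.0084% of all genes did. CALU rose in SCaBER by 1.15 under siFOXA1.1 (adjusted p = 0.00173) and by 1.50 under siFOXA1.2 (adjusted p = 0.0144), with a pooled change of 1.32 that missed the threshold (adjusted p = 0.0719). HMGB1 had a pooled change of -1.02 (adjusted p = 0.0719). PRKACB was at 27.7 CPM in SCaBER controls and 27.9 CPM under siFOXA1, and AKR1B1 had -0.47 (adjusted p = 0.639), opposite to RT112. Among the fallers, the luminal and mucosal genes TFF1, PSCA and UPK1B had SCaBER control means of at most 0.374 CPM, so that no fall could be measured. The same held for PALM, PHGR1, TP53I11, HS6ST3 and TLE2. The 16 of the 109 not tested in SCaBER were all fallers, with AGR2, S100P and HPGD also among them. A difference in pooled change between the lines, tested as an interaction in edgeR, passed for none of the 109 (0.0% of 13701 genes), with an unadjusted p under 0.05 for 26 of them and 737 of all genes.

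**Figure D5:**
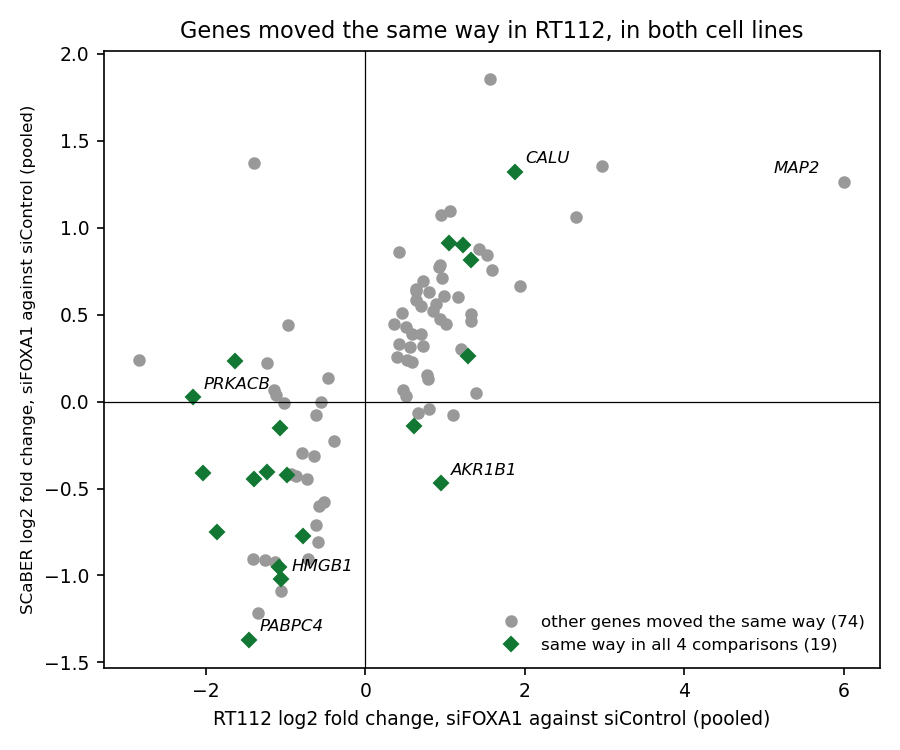
Pooled log2 fold change in SCaBER (vertical) against RT112 (horizontal) for the 93 same-direction genes tested in both lines. Green diamonds are the 19 that passed in all 4 siRNA-to-siRNA comparisons in RT112 and grey dots the other 74. Most points lie in the upper right and lower left parts of the plot, with PABPC4, HMGB1 and CALU far from 0 in both lines, and PRKACB and AKR1B1 near or across 0 in SCaBER.

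Promoter sequence was looked at for the forkhead motif TGTTTAC, for its relative TGTTTGC and for a further form, TATTTAC, on both strands. The RefSeq windows ran from 250 bases before to 50 bases after an annotated start of each gene (GRCh38.p14). Only 82 of the 109 genes had an entry, too few for a check of shares, which is therefore void. Of all 27305 RefSeq promoters 9.62% hold a motif, and of the 8928 genes tested here with an entry 5.78%. A match was found for 4 of the 82, of which 3 are fallers and 1 is a riser. Among the 18 of the 27 genes with an entry none did, which says only that these letters are not in these windows. DENND2D (12.4 to 39.6 CPM in controls, 0.884 to 5.83 CPM under siFOXA1) and TLE2 (32.3 to 54.4 and 6.88 to 20.6 CPM) are fallers with a match, on the minus strand (chr1:111200597-111200896 and chr19:3047586-3047885), and CD44 is the riser, on the plus strand (chr11:35138921-35139220). The DENND2D window lies inside the span of the gene (chr1:111185969-111204578) and not at its outer start, so its match is at an internal start. The windows of the 3 genes are shown 5′ to 3′ with the motif in capitals.
DENND2D: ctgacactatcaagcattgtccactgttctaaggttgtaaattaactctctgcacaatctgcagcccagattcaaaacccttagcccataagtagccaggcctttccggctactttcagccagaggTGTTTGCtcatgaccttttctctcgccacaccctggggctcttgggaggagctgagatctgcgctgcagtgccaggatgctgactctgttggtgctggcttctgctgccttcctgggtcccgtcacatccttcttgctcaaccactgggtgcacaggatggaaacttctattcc
TLE2: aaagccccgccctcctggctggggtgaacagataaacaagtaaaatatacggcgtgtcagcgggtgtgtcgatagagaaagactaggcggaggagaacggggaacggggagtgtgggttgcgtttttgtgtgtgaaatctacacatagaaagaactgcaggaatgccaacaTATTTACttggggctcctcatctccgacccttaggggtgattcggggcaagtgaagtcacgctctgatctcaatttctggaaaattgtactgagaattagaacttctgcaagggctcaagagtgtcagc
CD44: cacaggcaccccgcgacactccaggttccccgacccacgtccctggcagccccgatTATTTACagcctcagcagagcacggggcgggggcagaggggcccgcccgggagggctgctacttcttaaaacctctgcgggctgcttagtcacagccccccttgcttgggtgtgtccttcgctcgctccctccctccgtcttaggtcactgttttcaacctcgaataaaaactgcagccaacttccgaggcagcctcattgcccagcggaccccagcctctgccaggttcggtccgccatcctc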

How the data were processed

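Raw counts for 58721 genes, as whole numbers, and TPM values (scaled for gene length and library total) were deposited by the authors. Their configuration lists trimming by TrimGalore 0.6.2 (quality 20, length 10 as minimums), then STAR 2.6.1a on hg38 with GENCODE 29 gene counts. A different build is named in the study's methods, and no coordinate of these tables was used. The authors' own test was DESeq2.

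The 8 RT112 count columns were fitted in edgeR 4.0.16 (R 4.3.3) with TMM scaling, filterByExpr (11986 genes kept), quasi-likelihood F tests, and p-values adjusted by Benjamini-Hochberg over all genes kept, threshold 0.05. One fit had a mean per target and another a mean per siRNA. SE is the log2 change divided by the square root of F. CPM uses library totals, and the floor is 3 counts per library. SCaBER was fitted in the same way, and the interaction of line and target on all 16 libraries. For FOXA1 the CPM were also compared by exact permutation (two-sided). Alternatives were other scalings, no filter, DESeq2 1.42.0, limma 3.58.1 on log2(TPM + 1), a replicate block and leaving out each library. In simulated RT112 counts, 200 genes were changed alike by both siRNAs. At 2-fold the pooled test recovered 62.5%, with 8.09% of its calls false, and the rule of both siRNAs recovered 44%. At 4-fold they recovered 89.5% and 80.5%. The simulated siRNAs of 1 target did not differ from each other, unlike those in RT112. These shares therefore do not give the recovery in the RT112 libraries. The labels call the replicate number an experiment batch, which makes it a pairing, although deviations from the siRNA means correlated between same-numbered libraries by only -0.0184 to 0.0136.

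The genes described, the gene lists and the rule of 4 siRNA-to-siRNA comparisons were chosen with earlier results of these data known. Genes named were FOXA1, all past the pooled threshold, the 20 risers and 20 fallers of the same-direction group with the largest smaller change (mean of at least 20 counts), list members in that group and the 6 largest with opposite directions. AC005306.1, BTN3A1, PDP1, MFSD4B, PGM2L1, BACE2, PTPN14, CEMIP2, ENDOD1, PPFIBP1, DHCR7, STX19, PRR15L, SAMD4A and CAPN8 also met the rule. KRT4, LY6D, SIVA1, H2AFZ, TMSB4X, CRYBG2, LDHA, EFNB2, SPRR3, S100A8, PTGS2 and the luminal factors were named after their values were seen.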

Additional observations from a re-analysis of the deposited data

Results flagged for a closer look

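In 3 of 120 groups of 4 libraries (60 named genes, siControl and siFOXA1 apart) 1 library stood away from the other 3 by a gap, as a part of the group's range, above Dixon's 95% critical value, where chance gives about 1 in 20 groups. SMOX was highest in siFOXA1.2 replicate 2, at 27.2 CPM beside 15.2 to 16.1 CPM in the other siFOXA1 libraries (0.922 of the range). PTGER4 was highest in siFOXA1.1 replicate 1, at 21.7 CPM beside 14.4 to 15.3 CPM (0.88 of the range). FSTL3 was highest in siControl.2 replicate 1, at 41.4 CPM beside 21.9 to 23.7 CPM in the other controls (0.909 of the range).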

How the results depend on the processing

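The pooled count of 13 genes was 5 with library totals alone, 123 without the filter, 179 with DESeq2, 4 in the TPM table, 0 with the replicate block (1231 at an unadjusted p under 0.05) and 0 to 4 with 1 library left out. For siFOXA1.2 the count of 245 became 376 without the filter, 370 with DESeq2, 72 in the TPM table and 64 to 380 with 1 library left out. The 109 same-direction genes became 44 in the TPM table, 52 when the larger p of both siRNAs was adjusted and 27 under the 4-comparison rule. With 1 library left out they were 37 (without either siFOXA1.2 library), 64 to 72 (without siControl.1 replicate 2 or a siControl.2 library), 80 (without siControl.1 replicate 1), or 140 and 148 (without a siFOXA1.1 library). In the pairing with 47 genes the count was 95 without the filter, 26 in the TPM table and 21 to 75 with 1 library left out, and in the pairing with 89 it was 37 in the TPM table and 39 to 130. The 283 genes between controls became 449 without the filter, 429 with DESeq2, 78 in the TPM table and 62 to 453. Of the same-direction genes, the 45 that differed between the FOXA1 siRNAs became 20 in the TPM table and 17 to 56. The interaction passed for 7 of them without the filter. No named gene reversed, and 2 of the 109 changed sign under 1 siRNA in the TPM table. With library totals alone the median of all genes moved to -0.15 under siFOXA1.1, and in the TPM table to -0.29. The replicate block kept 105 of the 109 same-direction genes. Of the gene list counts in the report it moved 4 by over 1.5 times: luminal factors lower under siFOXA1.2 (1 to 2), interferon genes higher under siFOXA1.2 (0 to 1) and, in the same-direction group, luminal factors and interferon genes (0 to 1 each). The causes were not tested. Depth limits genes near 3 counts.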
